A study of Mus musculus with 4 samples.

Results

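The probes described here are those on a mouse long noncoding RNA array whose names begin with mouselincRNA or MM9LINCRNAEXON. They were chosen by name alone, and there were 732 of them among 60900 noncontrol probes, with 649 in the mouselincRNA series and 83 in the MM9LINCRNAEXON series. Each was printed as 1 spot per array, and the suffix that all names share is left out here. The final plus or minus sign of a name was taken as the strand of the genome that the probe was designed for.

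RNA of 2 mouse cell lines was hybridised to 4 arrays in 1 colour, with 1 array for each line and day. C3H10T1/2 is a mesenchymal progenitor line with a fibroblast shape, and 3T3-L1 is a line already committed to the adipocyte lineage. Each line was measured at day 0 and at day 4 after adipocyte differentiation had been induced. The labels name no genetic change in either line, and the inducing agents, the passage and the number of cultures behind each RNA were not given in the sources used here. The deposited files pair hardly any probe with a gene, so the adipocyte and preadipocyte markers that would check the labelled cell types could not be read.

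Long intergenic noncoding RNAs, or lincRNAs, are transcripts of stretches between protein-coding genes that hold no long reading frame. Many were first mapped in the mouse from chromatin marks of active promoters and transcribed bodies. They are known as less abundant and more restricted to single tissues than messenger RNAs, and some act in the nucleus by binding chromatin or RNA-binding proteins. Several have been shown to be needed for adipocyte formation in culture. The probe names carry catalogue numbers and neither gene symbols nor coordinates, so none of the probes below can be tied to a known lincRNA. Nor do the files hold the probes' sequences.

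Signal is the scanner intensity after background subtraction within its own array, in arbitrary units. A probe was counted as above background where the scanner software marked its spot as well above background. Of 300 negative control spots, 3 to 6 carried that mark on an array, and the 95th percentile of these spots lay between 17.2 and 20.9. The lowest signal above background was 23.3 to 25.1. For comparisons between arrays, log2 signals were set relative to the 75th percentile of their own array (a signal of 321 to 388), so a fold below can differ from the plain ratio of the signals beside it. With other scalings the median change over every noncontrol probe moved from 0.16 to 0.02 (log2) for 3T3-L1 between days and from -0.16 to -0.03 between the lines at day 0. Different probes bind with different strength, so the signals of separate probes do not rank their transcripts.

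By the well above background mark, most of the lincRNA probes were dark in both lines. A looser mark of the same software, given near the end, counted most of them on each array. On the C3H10T1/2 arrays 186 probes (25.4%) were above background at day 0 and 194 (26.5%) at day 4. On the 3T3-L1 arrays 216 (29.5%) were above background at day 0 and 209 (28.6%) at day 4. The same shares over all 60900 probes were 59.0%, 60.1%, 63.9% and 60.6%, so the lincRNA probes were seen at well under the overall share on every array. These are shares of probes on single arrays and have no replicate error.

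The MM9LINCRNAEXON series was above background more often than the mouselincRNA series. Its shares were 33.7% and 36.1% in C3H10T1/2, then 39.8% and 34.9% in 3T3-L1 at days 0 and 4, against 24.3%, 25.3%, 28.2% and 27.7% for the mouselincRNA series. The 1102 probes named humanlincRNA on the same arrays, whose name points to human lincRNAs, gave 22.4%, 24.8%, 26.5% and 26.1%. Probes named for human transcripts were thus above background at a share close to that of the mouselincRNA series, and how far cross-hybridisation entered either share was not tested. The array maker's main series, ASMM10P, lay between 60.4% and 65.4%.

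**Figure D1:**
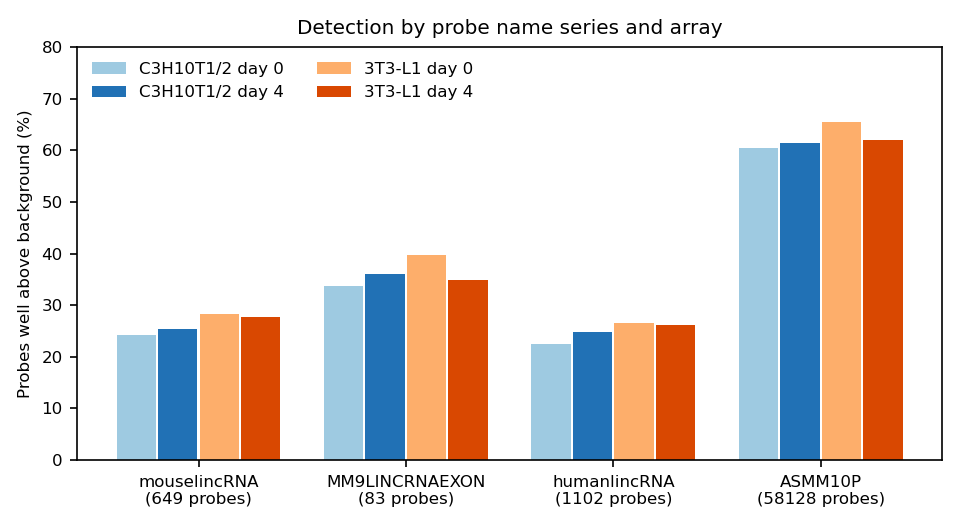
Share of probes well above background (vertical axis, percent) for 4 series of probe names, with 1 bar for each array. The mouselincRNA bars lie between 24.3% and 28.2% and the MM9LINCRNAEXON bars between 33.7% and 39.8%, all far below the ASMM10P bars. In all 4 series, ASMM10P included, the highest bar is 3T3-L1 at day 0.

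What was seen was mostly seen everywhere. Of the 732 probes, 484 (66.1%) were above background on no array and 162 (22.1%) on all 4, which left 38 on 1 array, 25 on 2 and 23 on 3. Over all probes, 31.7% were above background on no array and 53.9% on all 4. Among probes seen on any array, 162 of 248 lincRNA probes were seen on all 4, against 32829 of 41591 over all probes. Detected lincRNA probes were thus seen everywhere less often than detected probes in general. Of the 38 lincRNA probes above background on 1 array only, 18 were seen in 3T3-L1 at day 0, 10 in 3T3-L1 at day 4, 6 in C3H10T1/2 at day 0 and 4 in C3H10T1/2 at day 4. As shares of the 732 these were 2.46%, 1.37%, 0.82% and 0.546%. Over all probes the same shares were 2.57%, 1.16%, 0.754% and 0.862%, so 3T3-L1 at day 0 led there too.

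The detected probes were dim as well. The median signal of those above background was 107 and 92.1 in C3H10T1/2, then 84.7 and 92.3 in 3T3-L1 at days 0 and 4, against 225 to 239 over all detected probes. Of the 248 lincRNA probes above background on at least 1 array, 149 had a highest signal under 128, 80 lay between 128 and 1024, and 19 reached 1024 or more. For probes printed as repeated spots, the log2 difference between 2 arrays was taken at each spot, and the dimmer array set the range. The SD of these differences had a median of 0.231 in the lowest range, against 0.0971 and 0.078 in the brighter ranges. The scanner software's own error estimate for a difference between 2 arrays is given below as ± and ranged from 0.20 to 0.43 (log2) for lincRNA probes above background on both. That estimate covers the spot and not the culture.

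Detection followed the cell line for 13 probes and the day for 12. Seen on both arrays of 3T3-L1 and on neither of C3H10T1/2 were 10 probes, or 4.03% of the 248 seen anywhere, with 2.44% as the same share over all probes. The signals of these 10 in 3T3-L1 were 29.7 to 166 with a median of 39.3, so most lay close to the lowest signal that counted. The reverse pattern was found for 3 probes (1.21%, with 0.89% over all probes), MM9LINCRNAEXON11009-, mouselincRNA0665+ and mouselincRNA1337+.

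Above background at day 4 in both lines and at day 0 in neither were 8 probes, or 3.23% of the 248, with 0.959% over all probes. They were mouselincRNA0118+, mouselincRNA0543+, mouselincRNA0909-, mouselincRNA1318+, mouselincRNA1377+, mouselincRNA1379-, mouselincRNA1592- and mouselincRNA1619+, with day 4 signals of 30.0 to 133 and a median of 39.0. Such a crossing can be a small step in signal. The signal of mouselincRNA0543+ was 25.7 and 39.2 in C3H10T1/2, then 17.4 and 30.0 in 3T3-L1 at days 0 and 4. That of mouselincRNA0118+ was 27.3 and 37.5 in C3H10T1/2, then 24.2 and 47.4 in 3T3-L1. The opposite pattern, above background at day 0 in both lines and not at day 4, was found for 4 probes (1.61%, with 1.56% over all probes), MM9LINCRNAEXON10106+, mouselincRNA0305+, mouselincRNA0309+ and mouselincRNA0362+. The last of these read 54.8 and 22.2 in C3H10T1/2, then 48.2 and 21.5 in 3T3-L1.

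The sign in the names makes it possible to ask whether a locus gave signal from 1 strand or from both. The 732 names held 403 numbers, and 329 numbers had a plus and a minus probe, 317 of them in the mouselincRNA series and 12 in the other. The remaining 74 probes, 59 of them MM9LINCRNAEXON, had no partner. Partners share a number, yet whether they lie at the same place in the genome is not stated in the files.

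Where a pair gave signal, it was mostly from 1 sign. With 25.4% to 29.5% of the lincRNA probes above background on an array, 2 unrelated probes would also mostly show 1 alone. Whether detection of the partners was linked was not tested, so the counts below are no result about signal from 1 strand. In C3H10T1/2, both signs were above background for 21 pairs at day 0 and 22 at day 4, against 121 and 127 pairs with 1 sign alone. In 3T3-L1, both signs were above background for 27 pairs on each day, against 136 and 134 pairs with 1 sign alone. Over the 4 arrays, 148 of 329 pairs (45.0%) were ever seen from 1 sign only, 36 (10.9%) from both, and 145 from neither. Of the 148, 96 were above background on all 4 arrays with that sign, 44 with plus and 52 with minus.

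Neither sign led by much. Plus alone was seen for 56 to 65 pairs on an array and minus alone for 65 to 72. In the mouselincRNA series the plus probes were above background in 23.3%, 24.8%, 28.0% and 27.0% of 322 on the 4 arrays, and the minus probes in 25.4%, 25.7%, 28.4% and 28.4% of 327.

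**Figure D2:**
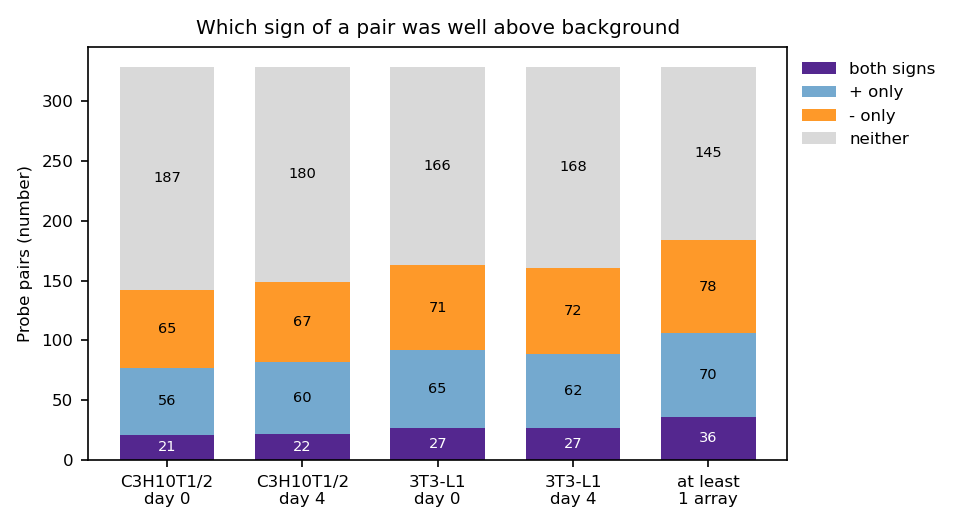
Number of the 329 probe pairs (vertical axis) with both signs, plus only, minus only or neither sign well above background, on each array and, in the last bar, on at least 1 array. Pairs with 1 sign make up 121 to 136 of 329 on the single arrays, and pairs with both make up 21 to 27.

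Both signs were above background on every array in 17 pairs, and the partners' changes had little linear relation. Across these 17 pairs the day 4 changes of the plus and minus probes had a Pearson r of 0.06 (Spearman rho 0.10) in C3H10T1/2 and -0.11 (-0.11) in 3T3-L1. For the difference between the lines, r was 0.15 (rho 0.32) at day 0 and 0.13 (rho 0.11) at day 4. These are descriptions over pairs that share the same arrays, and most changes were small. The median distance between the partners' changes was 0.37 to 0.44 (log2).

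In 4 pairs, singled out after their values were seen, the partners' changes lay at least 2-fold apart in some comparison. The minus probe of mouselincRNA0706 read 744 in C3H10T1/2 at day 0, 229 there at day 4, and 197 and 206 in 3T3-L1, while its plus partner read 4226, 4719, 3818 and 4175. C3H10T1/2 at day 0 was thus the high array for the minus probe and not for the plus probe, with day 4 changes in that line of -1.88 ± 0.21 and -0.02 ± 0.20 (log2). In mouselincRNA0133 the signs were the other way round. Its plus probe read 436, 145, 125 and 93.0 and its minus probe 3492, 3771, 4246 and 3881, with day 4 changes in C3H10T1/2 of -1.77 ± 0.21 and -0.07 ± 0.20. Here too the single high array was C3H10T1/2 at day 0.

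The remaining pairs parted in 3T3-L1. The plus probe of mouselincRNA0544 differed by -1.56 ± 0.26 between day 4 and day 0 there, and its minus partner by 0.48 ± 0.21. For mouselincRNA1235 the plus probe differed by 0.22 ± 0.22 and the minus probe by -0.86 ± 0.20.

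The 6 brightest probes, by mean level among those above background on all 4 arrays, differed by less than 2-fold in each comparison of days and lines except for mouselincRNA1606-. The brightest, mouselincRNA0161-, had signals of 52613 and 52524 in C3H10T1/2, then 45978 and 41330 in 3T3-L1 at days 0 and 4. For mouselincRNA0344- they were 36351, 29007, 30798 and 29762 in the same order. MM9LINCRNAEXON10664+ read 16514, 15261, 13491 and 14817. After scaling, each of the 6 had its highest level on C3H10T1/2 at day 0. Their day 4 changes in that line ran from -0.51 ± 0.20 (log2, mouselincRNA0344-) to -0.18 ± 0.20 (mouselincRNA0161-). Whether this belongs to the probes or to the array was not tested. No spot was saturated.

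The signal of mouselincRNA1606- was 15252 and 13058 in C3H10T1/2, then 7177 and 9955 in 3T3-L1, so both 3T3-L1 arrays lay below both C3H10T1/2 arrays, by 2.57-fold at day 0. The other two, mouselincRNA1294+ at 5539 to 7426 and mouselincRNA0772- at 5367 to 6061, spanned narrow ranges. Partners of the brightest were mostly dark, and 66.1% of all the lincRNA probes were above background on no array. The opposite-sign partners of mouselincRNA0161-, mouselincRNA0344-, mouselincRNA1606-, mouselincRNA1294+ and mouselincRNA0772- were above background on no array. MM9LINCRNAEXON10664- was above background on all 4, with signals of 366, 444, 304 and 223.

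The series title and design text set out to find long noncoding RNAs and messenger RNAs that alter during adipocyte formation, which the comparison of day 4 with day 0 addresses. In C3H10T1/2 few lincRNA probes had a signal at least 2-fold higher at day 4. Among 210 probes seen on either array or both, 4 (1.90%) were at least 2-fold higher at day 4, where 8.52% of all probes tested were, and 11 (5.24%) were at least 2-fold lower, where 7.62% were. The 4 higher probes were mouselincRNA1379-, MM9LINCRNAEXON10136+, mouselincRNA0478+ and mouselincRNA0305-. Of the 15 probes, 1 of the higher and 5 of the lower were counted by a bound, because 1 of the 2 arrays was not above background and the fold is then a lower limit. With 1 array per group there is no test within a line. Among probes above background on both arrays, 3 of 170 (1.76%) were higher and 6 (3.53%) lower, against 7.60% and 6.62% of all such probes.

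The largest of the lower values in C3H10T1/2 belonged to 4 probes. MM9LINCRNAEXON12036- read 704 at day 0 and 44.8 at day 4, a difference of 17.8-fold (log2 -4.15 ± 0.28). Its signal in 3T3-L1 was 76.2 at day 0 and 21.2, not above background, at day 4, so C3H10T1/2 at day 0 was its high array. The probe mouselincRNA0750- was above background there and nowhere else. It read 338 in C3H10T1/2 at day 0 and 5.79 to 6.54 on the other 3 arrays, and was at least 15.3-fold lower at day 4. Its plus partner read 61.5, 37.8, 74.4 and 49.4 and was above background on all 4.

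The same pattern, at lower signal, was found for mouselincRNA0053-. It read 116 in C3H10T1/2 at day 0 and 10.1 to 14.4 elsewhere, not above background, and was at least 5.22-fold lower at day 4, while its partner was above background on no array. MM9LINCRNAEXON11009- read 179 at day 0 and 48.3 at day 4, a 4.20-fold difference, with 4.95 and 5.90 in 3T3-L1. The largest rise in this line that was measured on both days, that of MM9LINCRNAEXON10136+, is described below with the probes of both lines. For mouselincRNA0305- the signals were 145 and 331 in C3H10T1/2 (2.02-fold) and 247 and 342 in 3T3-L1 (1.51-fold).

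In 3T3-L1 more lincRNA probes were higher than lower at day 4. Of 235 tested, 18 (7.66%) were at least 2-fold higher, where 8.45% of all probes were, and 10 (4.26%) at least 2-fold lower, where 10.6% were. Scaled to the probes above background on all arrays, the counts were 11 and 12, so the balance of higher and lower rests on the scaling. By bound, 8 of the higher and 3 of the lower were counted. Of 190 probes above background on both arrays, 10 (5.26%) were higher and 7 (3.68%) lower, against 8.29% and 9.07% of all such probes.

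The largest higher value that was measured on both days belonged to mouselincRNA0843-, which read 48.2 and 196 in 3T3-L1 (4.43-fold) and 43.3 and 86.1 in C3H10T1/2 (1.76-fold). Its partner was above background in 3T3-L1 at day 0 alone, at 42.2. Several of the higher probes were seen in 3T3-L1 at day 4 and nowhere else. The signal of mouselincRNA1609+ was 95.7 there and 17.6 to 25.6 on the other arrays, at least 4.07-fold higher than at day 0. That of mouselincRNA0552+ was 76.6 there and 5.63 to 11.8 elsewhere, at least 3.36-fold higher. The median of the lincRNA probes above background on that array was 92.3. The partner of each was above background on no array.

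The largest lower value measured on both days in 3T3-L1 belonged to mouselincRNA0013+. It read 1412 at day 0 and 265 at day 4 in 3T3-L1 (4.88-fold lower) and 421 and 310 in C3H10T1/2 (1.54-fold lower), so 3T3-L1 at day 0 was its high array. MM9LINCRNAEXON10627+ was above background there alone, with 76.5 at day 0 and 9.78 at day 4 in 3T3-L1, at least 3.01-fold lower, and 22.3 and 6.08 in C3H10T1/2.

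Across both lines, 7 probes were at least 2-fold different the same way and none in opposite ways, out of 197 tested in both. Opposite ways were found for 0.503% of all probes, a share at which a count of 0 among 197 is no result. Higher in both were 3, where 4.20% of 36949 probes tested in both lines were, and lower in both were 4, where 3.58% were. As shares of 197 these are 1.52% and 2.03%. The higher probes were mouselincRNA1379-, MM9LINCRNAEXON10136+ and mouselincRNA0478+. The lower ones were MM9LINCRNAEXON11125+, MM9LINCRNAEXON12036-, mouselincRNA0544+ and mouselincRNA0939-.

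The day was also tested over both lines with limma, with the cell line as a second term. This fit has 1 residual degree of freedom, which holds the difference between the lines' responses and not a spread between cultures, so it favours a like change in both lines. Of 210 lincRNA probes tested, limma called 1 as higher and 1 as lower at day 4 at an adjusted p below 0.05, where it called 1.74% of 38333 probes as higher and 1.20% as lower. At an unadjusted p below 0.05 there were 22 (10.5%), against 18.5% of all probes tested.

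The probe called higher was mouselincRNA1379-. It read 15.7 at day 0 and 122 at day 4 in C3H10T1/2, and 13.2 and 133 in 3T3-L1. Both day 0 signals were not above background and both day 4 signals were, with no overlap between the days, and the difference was at least 4.39-fold in C3H10T1/2 and at least 5.83-fold in 3T3-L1. It entered the limma test only through the day 4 arrays, where it is high, and the fit sets these against day 0 signals at background, so its call is no support and the bounds are the measured size. Its plus partner lay close to the background on every array, at 28.9 and 36.3 in C3H10T1/2, then 37.4 and 39.9 in 3T3-L1.

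MM9LINCRNAEXON11125+, which has no partner, fell. It read 112 and 31.6 in C3H10T1/2, then 129 and 34.7 in 3T3-L1 at days 0 and 4. Both lines were high at day 0 and low at day 4, by at least 4.00-fold in C3H10T1/2, where day 4 was not above background, and by 3.41-fold in 3T3-L1. It was above background on 3 arrays, at least 1 of them on each day. The limma coefficient was -1.89 ± 0.29 (log2, SE, with adjusted p = 0.0443, and 0.00261 to 0.154 over 7 alternatives, 5 of which called it). It would have entered the test through its day 0 arrays alone, where it is high. The fit also used the dim day 4 signal without a bound, so the call is no separate support. Quantile normalization and the authors' values, both among the alternatives, are not separate checks.

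The other 5 probes that differed 2-fold in both lines missed the threshold in the main setting. Of 8 alternatives, 3 called MM9LINCRNAEXON10136+, 3 called mouselincRNA0544+, 1 called mouselincRNA0478+ and 0 called mouselincRNA0939-. For MM9LINCRNAEXON12036- it was 1 of 7. MM9LINCRNAEXON10136+ read 64.4 and 388 in C3H10T1/2 (5.31-fold) and 176 and 451 in 3T3-L1 (2.80-fold), with a limma adjusted p of 0.0599. The signals of mouselincRNA0478+ were 176 and 481 in C3H10T1/2 (2.41-fold) and 311 and 721 in 3T3-L1 (2.53-fold), with a limma adjusted p of 0.0889. Both had higher signals at day 4 than at day 0 in each line. The minus partner of mouselincRNA0478+ was above background on no array, and MM9LINCRNAEXON10136+ has none.

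Lower signals at day 4 were found for mouselincRNA0544+, which read 139 and 59.1 in C3H10T1/2 (2.67-fold lower) and 168 and 52.3 in 3T3-L1 (2.95-fold lower; limma adjusted p = 0.0685). Its minus partner read 714 and 474, then 494 and 635, and so was lower at day 4 in one line and higher in the other. For mouselincRNA0939- the signals were 365 and 190 in C3H10T1/2 (2.17-fold lower) and 387 and 173 in 3T3-L1 (2.05-fold lower; limma adjusted p = 0.133). Its plus partner read 274, 262, 291 and 229, within 1.18-fold between days after scaling. MM9LINCRNAEXON12036-, with the signals given above, was at least 3.00-fold lower at day 4 in 3T3-L1, and its limma adjusted p was 0.0793 with a coefficient of -2.94 ± 0.61.

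**Figure D3:**
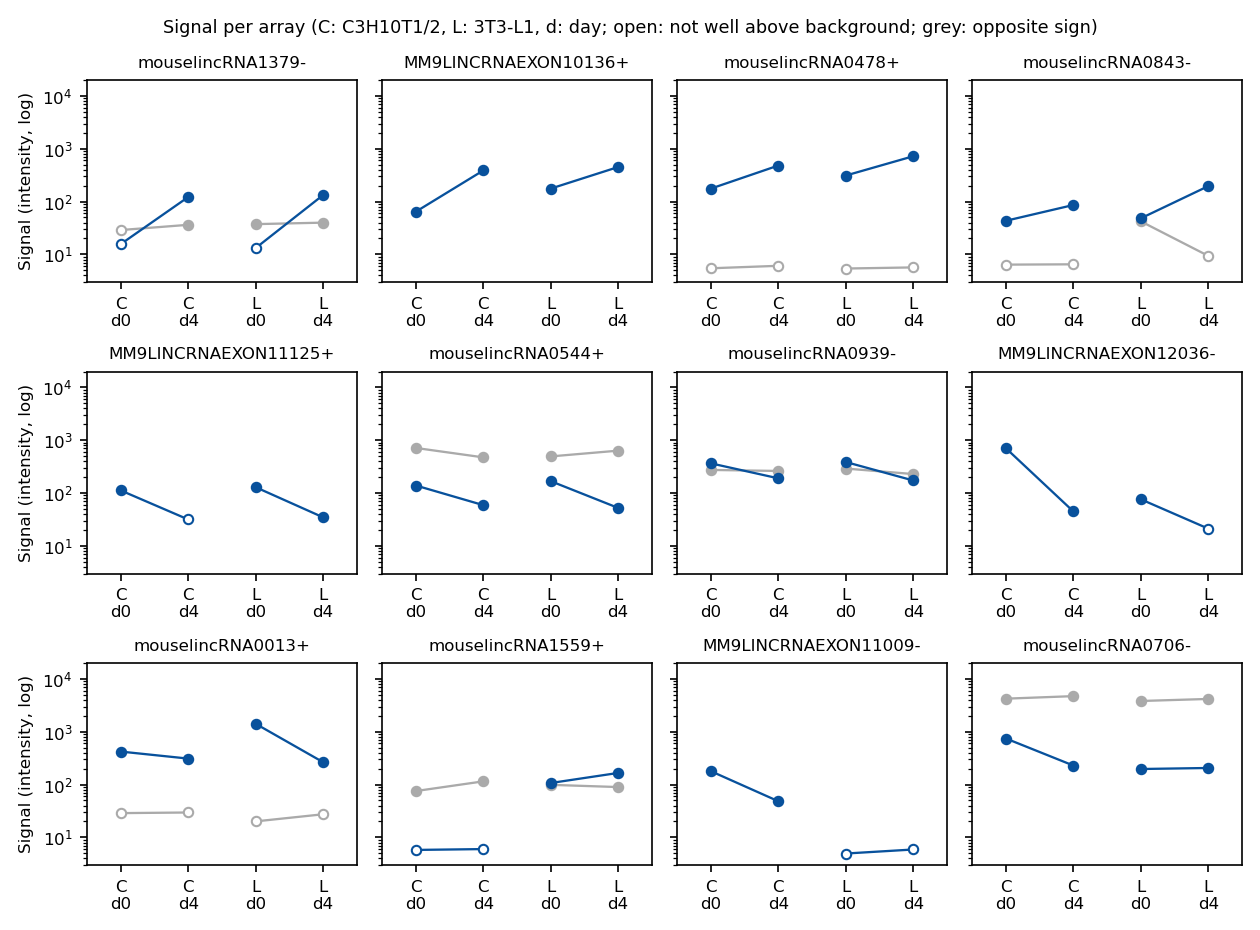
Signal on the 4 arrays (vertical axis, intensity on a log scale) of 12 probes in blue and, where there is 1, the opposite-sign partner in grey, with open points where the spot was not well above background and lines joining the 2 days of a line. The blue points of mouselincRNA1379- climb from open points at 15.7 and 13.2 to 122 and 133, while those of MM9LINCRNAEXON11125+ drop from 112 and 129 to 31.6 and 34.7.

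**Figure D4:**
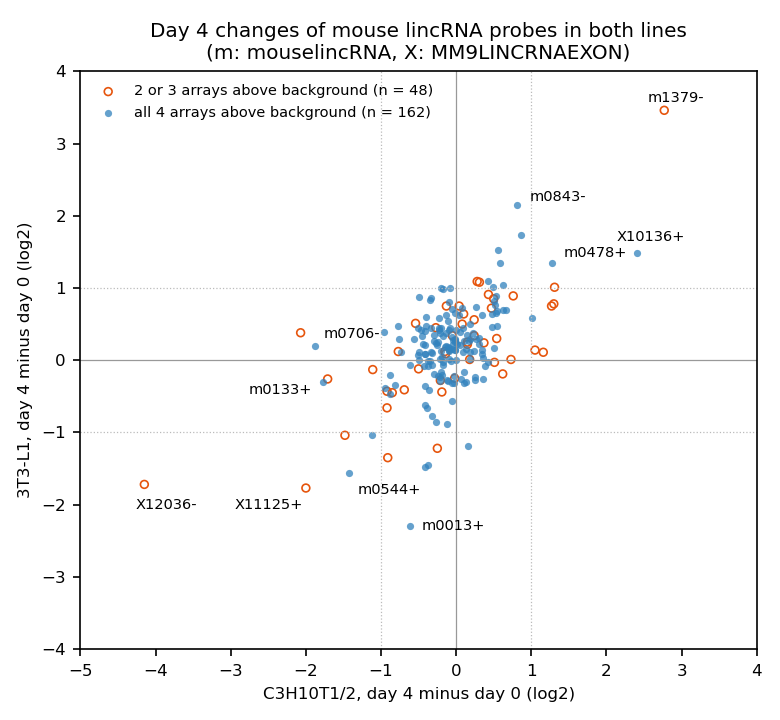
Day 4 minus day 0 (log2, relative to the 75th percentile) in C3H10T1/2 (horizontal axis) and 3T3-L1 (vertical axis) for the 162 lincRNA probes above background on all 4 arrays (filled) and 48 above background on 2 or 3 (open, with dim signals as they stand). Dotted lines mark 2-fold, most points lie inside them, and the corners at the upper left and lower right hold none.

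Over the 162 probes above background on all 4 arrays, changes were smaller than over all probes seen on all 4. The median size of the day 4 change was 0.27 (log2) in C3H10T1/2, against 0.35 over all such probes, and 0.31 against 0.42 in 3T3-L1. The signed median was -0.10 against -0.05 in C3H10T1/2 and 0.21 against 0.07 in 3T3-L1. Its sign in each line was the same under the 4 other ways of scaling or background correction, with -0.17 to -0.04 in C3H10T1/2 and 0.13 to 0.25 in 3T3-L1. Over all probes seen on all 4 arrays, these ways gave -0.12 to -0.04 in C3H10T1/2 and -0.01 to 0.06 in 3T3-L1. The sign in C3H10T1/2 was thus shared by all probes. Quantile normalization and the authors' values, 2 of the 4 ways, gave equal medians. Across these 162 probes the day 4 changes of the lines had r = 0.50 and rho = 0.39, against 0.55 and 0.44 over all 32829 probes seen on all arrays. This is a description across probes of the same 4 arrays, on which neither line shares an array with the other.

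The comparison of the lines asks which lincRNA probes differed between a mesenchymal progenitor and a preadipocyte line on the same day. At day 0, of 226 probes tested, 5 (2.21%) were at least 2-fold higher in 3T3-L1, where 7.63% of all probes were, and 10 (4.42%) at least 2-fold lower, where 6.37% were. At day 4, of 220 tested, 7 (3.18%) were higher in 3T3-L1, where 6.63% were, and 3 (1.36%) were lower, where 8.30% were. The 3 lower at day 4 were MM9LINCRNAEXON11009-, MM9LINCRNAEXON11661- and mouselincRNA0733-. At day 4, 1 of 183 probes above background in both lines was higher in 3T3-L1 and 1 was lower (0.546% each, against 5.55% and 6.88% of all such probes), and the other 8 counts of that day were bounds.

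With limma, fitted for the line with day as the other term, 1 lincRNA probe of 210 was called higher in 3T3-L1 and 1 in C3H10T1/2, where 1.71% and 1.30% of 38333 probes were. At an unadjusted p below 0.05 there were 12 (5.71%), against 13.9% of all probes tested. Both called probes entered the test only through the arrays of the line where they are high, and the fit sets these against signals at background, so the calls are no support and the bounds are the measured sizes. The probe called higher in 3T3-L1 was mouselincRNA1559+. It read 107 and 166 in 3T3-L1 at days 0 and 4 and 5.79 and 6.01, not above background, in C3H10T1/2, so the lines did not overlap, and it was higher by at least 3.63-fold (day 0) and 6.77-fold (day 4). Its minus partner was above background on all 4 arrays at 75.4, 115, 98.8 and 89.7, with no such split between the lines.

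The probe called higher in C3H10T1/2 was MM9LINCRNAEXON11009-, with the signals given above. It was at least 8.70-fold lower in 3T3-L1 at day 0 and at least 2.03-fold lower at day 4. The signal of mouselincRNA0733- differed between the lines and hardly between the days. It read 310 and 306 in C3H10T1/2, then 143 and 144 in 3T3-L1, 2.61-fold lower in 3T3-L1 at day 0 and 2.08-fold at day 4. MM9LINCRNAEXON11661- was above background in C3H10T1/2 at day 4 alone, at 51.4, with 25.0 at day 0 and 19.1 and 21.1 in 3T3-L1, and was at least 2.16-fold lower in 3T3-L1 at day 4.

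Other probes among the most different between the lines were those already described. At day 0, mouselincRNA0750- was at least 16.4-fold, MM9LINCRNAEXON12036- 11.2-fold and mouselincRNA0053- at least 5.61-fold lower in 3T3-L1. At day 4, MM9LINCRNAEXON12036- was at least 1.88-fold lower there, and the other two were above background in neither line. The plus probe of mouselincRNA0133 was 4.21-fold and the minus probe of mouselincRNA0706 4.56-fold lower in 3T3-L1 at day 0, and at day 4 they were 1.53-fold and 1.09-fold lower. Higher in 3T3-L1 at day 0 were mouselincRNA0013+ (2.78-fold), MM9LINCRNAEXON10136+ (2.26-fold) and MM9LINCRNAEXON10627+ (at least 2.59-fold). Higher in 3T3-L1 at day 4 were mouselincRNA1609+ (at least 3.90-fold), mouselincRNA0552+ (at least 3.13-fold) and mouselincRNA0538- (at least 3.10-fold). The last read 75.9 in 3T3-L1 at day 4 and 8.08 to 21.1 on the other arrays, while its plus partner stayed between 549 and 721.

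The day 4 change differed at least 2-fold between the lines for 16 of the 162 probes seen on all arrays. It was higher in 3T3-L1 for 12 (7.41%) and lower for 4 (2.47%), against 6.55% and 8.60% over all such probes, with a median difference of 0.28 (log2) against 0.09. No residual is left to test this difference. The 4 with the lower change in 3T3-L1, named after their values were seen, were mouselincRNA0013+, mouselincRNA0188-, mouselincRNA0582- and mouselincRNA0735+. Each had its highest signal in 3T3-L1 at day 0. For mouselincRNA0735+ the signals were 444 and 386 in C3H10T1/2, then 833 and 280 in 3T3-L1, and for mouselincRNA0582- they were 66.9, 56.9, 128 and 42.1.

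The largest differences the other way belonged to mouselincRNA0706- (2.07), mouselincRNA0133+ (1.46), mouselincRNA1040- (1.37), mouselincRNA0996- (1.35) and mouselincRNA0843- (1.34). For mouselincRNA0706- and mouselincRNA0133+ the signal in C3H10T1/2 was lower at day 4, and for mouselincRNA0843- both lines had a higher signal at day 4. The signal of mouselincRNA0996- was 268 and 156 in C3H10T1/2, then 167 and 200 in 3T3-L1, so its changes ran in opposite ways at under 2-fold in each line.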

How the data were processed

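Per the labels' protocols, total RNA was freed of ribosomal RNA, amplified over whole transcripts and labelled with Cy3. Per the file headers and the submitters' processing notes, the deposited scanner files came from Agilent Feature Extraction 11.0.1.1. They hold one background-subtracted intensity per spot, without scaling between arrays. The authors' deposited table holds log2 values of the same arrays, made by a method that the sources used here do not give, and served as an alternative. In all 4 comparisons its median change over the lincRNA probes seen on every array equalled that of quantile normalization. These alternatives are therefore not separate checks. All 4 arrays came from 1 slide and 1 scan, so no batch term could be fitted.

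From the intensities, log2 values minus each array's 75th percentile were computed over 60900 noncontrol probes. Control spots, outlier spots and 15 probes with nonuniform spots were left out, none of them lincRNA probes. A pair of arrays was compared where at least 1 was above background, with a threshold of 2-fold. Where 1 of them was dim, its signal was replaced by that array's lowest signal above background, unless the dim spot itself was brighter, which gives "at least". limma 3.58.1 (lmFit and eBayes in R 4.3.3, terms for line and day, Benjamini-Hochberg over all 38333 probes above background on at least 2 arrays, threshold 0.05) used the signals without bounds and was tested on simulated data.

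Named probes are the 6 brightest, those limma called, the 4 highest and 4 lowest of each comparison beyond 2-fold, those 2-fold different in both lines, and their opposite-sign partners. Others were picked after their values were seen and are marked so or serve as examples of a count. The probes and rules were chosen with earlier results of these data known. Alternatives were other scalings, normexp, other fold thresholds, other detection rules and other limma settings. With 1 array per group, precision is limited by how few arrays there are. Figures were drawn with matplotlib 3.10.9.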

Additional observations from a re-analysis of the deposited data

How the results depend on the processing

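No paired analysis was possible because the labels give no replicate numbers, apart from the limma fit, whose line term pairs the 2 days of a line. With 1 array per group, none could be left out of a comparison. Of 480 recomputed values of named probes, 423 moved by less than their error and 57 moved by more. No value of 2-fold or more changed sign, while 20 recomputed values of 7 results, all within 0.12 of 0 (log2) as given, did. Of the 57, 54 came from normexp with an offset of 50 and quantile normalization on median signals, 50 of them smaller and 4 larger in size. Of 115 recomputed counts, 55 stayed within 1.5 times the value given and 60 did not, and the causes of those shifts were not tested except where a setting by its construction counts fewer or more probes.

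The counts given in the text for higher and lower probes were 4 and 11 (day, C3H10T1/2), 18 and 10 (day, 3T3-L1), 5 and 10 (3T3-L1 against C3H10T1/2 at day 0) and 7 and 3 (at day 4). In that order they became 14 and 28, 53 and 20, 13 and 36, and 29 and 14 at 1.5-fold. At 4-fold they were 2 and 4, 3 and 1, 0 and 6, and 1 and 0. Higher and lower together, these made 6 of 210, 4 of 235, 6 of 226 and 1 of 220 lincRNA probes. Over all probes they made 1547 of 38303, 1972 of 40237, 1709 of 39960 and 1607 of 38917. With both arrays above background they were 3 and 6, 10 and 7, 3 and 7, and 1 and 1. Without a filter or bounds they were 33 and 46, 45 and 42, 30 and 35, and 31 and 24, from signals at background. With normexp they were 2 and 7, 7 and 2, 2 and 7, and 1 and 0. Shares over all probes at 1.5-fold, without a filter or with normexp are not given here. Whether those shifts are particular to lincRNA probes was therefore not tested. Scaling to the probes above background on all arrays gave 11 and 12 for the day in 3T3-L1. Quantile normalization and the authors' log2 values, which nearly match each other, moved none of these 8 counts by more than 1.5 times.

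For limma, where 1 probe was called in each direction for day and for line, normexp called 0 and 0 for both terms (20 and 10 at an unadjusted p below 0.05). Probes above background on all 4 arrays gave 2 and 1 for day and 0 and 0 for line (10 unadjusted), a filter that leaves out all 4 probes called in the main setting. Without a filter day had 8 and 11 calls and line had 3 and 5, and an intensity trend gave 2 and 2 for day. Leaving out the other term gave 0 and 0 for day (16 unadjusted) and 1 and 0 for line (9 unadjusted). Over all 38333 probes that setting also called 0 and 0 for day, so its lincRNA count for day is no result. For line it called 133 and 101. Normexp called 64 and 9 of 38333 for day and 154 and 106 for line. The 12 and 4 probes whose response differed between the lines became 6 and 1 with normexp, and 15 and 4 with quantile normalization or the authors' log2 values.

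Detection was recomputed under other detection rules only. Called positive and significant by the scanner software were 398, 396, 430 and 401 of the 732 lincRNA probes. That looser rule thus counted most of them on each array, and its shares over all probes are not given here. Above the 95th percentile of the negative controls were 254, 245, 289 and 255. By the negative control rule, 64 pairs had both signs on at least 1 array in place of 36, 158 had 1 sign and 107 neither.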

Other observations

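After the values were seen, the lincRNA probes were sorted by the array on which they stood at least 2-fold above each of the other 3, with bounds for dim arrays. C3H10T1/2 at day 0 held 6 of the 248 probes seen on any array (2.42%, against 2.25% of 41591 over all probes). They were mouselincRNA0750-, MM9LINCRNAEXON12036-, mouselincRNA0053-, MM9LINCRNAEXON11009-, mouselincRNA0706- and mouselincRNA0133+, and the margin over the next array ranged from 3.40-fold to at least 15.3-fold. C3H10T1/2 at day 4 held none, with 2.01% over all probes. In 3T3-L1, day 0 held 2, mouselincRNA0013+ and MM9LINCRNAEXON10627+ (0.806%, against 2.96%), and day 4 held 4, mouselincRNA1609+, mouselincRNA0552+, mouselincRNA0538- and mouselincRNA0843- (1.61%, against 1.97%). Each array is a single RNA, so what belongs to the line and day and what belongs to the array cannot be told apart.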
